A study of Mus musculus with 8 samples.

Results

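The genes of the proteasome were examined in soleus, a slow postural muscle of the hindlimb, from mice with and without the transcription factor KLF15 in muscle. The set comprised the genes whose symbols begin with Psma, Psmb, Psmc, Psmd, Psme, Psmf or Psmg and whose mean over the 8 libraries was at least 1 FPKM (fragments per kilobase of transcript, scaled to the size of the library). Of the 24033 genes in the deposited table, 52 carried such a symbol and 47 reached that mean. The genes closest to the limit were Psmb9, just inside at 1.27 FPKM, and Psmc3ip, just outside at 0.926 FPKM, which encodes a cofactor of meiotic recombination and not a proteasome protein. The other 4 below the limit were Psmb6-ps2 at 0.199 FPKM, Psmb7-ps2 at 0.110 FPKM, Psmb5-ps at 0.0981 FPKM and the testis subunit gene Psma8 at 0.0444 FPKM.

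RNA was sequenced from 4 K15-SKO muscles, labelled Myogenin-Cre/+;K15F/F, and 4 MyoCre muscles, labelled Myogenin-Cre/+, all from mice aged 2 months. Both groups carried the Cre transgene, so they differed in the floxed K15 alleles and not in Cre. The myogenin promoter drives Cre in skeletal muscle cells, and the other cells of the tissue keep the gene. The comparison asks which transcripts differ in soleus after loss of KLF15 from muscle.

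The proteasome degrades proteins tagged with ubiquitin and is a main route of protein breakdown in skeletal muscle. Its core particle is a barrel of alpha rings, which gate the entry, around beta rings, which hold the proteolytic sites. A regulatory particle caps the barrel: its base of ATPases unfolds the substrate, and its lid removes the ubiquitin chain. In immune cells, and in other cells under interferon, alternative catalytic subunits replace the constitutive ones to form the immunoproteasome, which shapes peptides for antigen presentation.

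The targeted gene, Klf15, was measured at 15.7, 19.3, 16.7 and 13.1 FPKM in K15-SKO, against 44.5, 49.8, 49.1 and 22.8 FPKM in MyoCre. The groups did not overlap; MyoCre replicate 4 was the lowest of its group and K15-SKO replicate 2 the highest of its own. The K15-SKO mean was 38.9% of the MyoCre mean, with an exact two-sided permutation p of 0.0286, the smallest that 70 assignments of the 8 libraries allow. In limma the log2 fold change was -1.28 with an adjusted p of 0.0315. With a library left out, the log2 fold change stayed between -1.55 and -1.18, and the limma adjusted p passed the threshold of 0.05 without K15-SKO replicate 2 (0.0441) and without MyoCre replicate 4 (0.000861) but not in the other 6 cases, where it reached up to 0.218. The call was also lost under other scalings.

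The sum of FPKM per library ranged from 519884 to 652275. A rough estimate from the lowest values put the depth between 8709640 and 21877600 fragments, so that Psmb9, the lowest of the 47 genes, rested on about 11.2 to 35.0 fragments and Psmb6, the highest, on about 836 to 2552. A list of 9 muscle genes, with Ckm and Mb beside slow sarcomere genes, summed to between 16358 and 31532 FPKM in K15-SKO libraries. In MyoCre libraries the sum lay between 15784 and 27681 FPKM. All 9 were tested and detected, and the sum is not a measure of slow fibres alone. Of 6 endothelial, 6 fibroblast, 3 adipocyte and 5 erythroid markers tested, 0 passed the threshold described next. As lists they leaned, with median log2 fold changes relative to all genes of 0.27 (endothelial), -0.24 (fibroblast), -0.53 (adipocyte) and 0.93 (erythroid). Below the median of all genes lay 0 of 6 endothelial, 5 of 6 fibroblast, 3 of 3 adipocyte and 0 of 5 erythroid markers. The part of cell make-up in the proteasome values was not tested. MyoCre replicate 2 was the only library with Ddx3y, a Y-linked gene, at 23.0 FPKM, and its Xist level was 0.0103 FPKM, against 21 FPKM or more in the other libraries. K15-SKO replicate 3 stood apart from the rest, with a median-of-ratios scaling factor of 0.797 against 0.951 to 1.15 in the other 7, and with haemoglobin Hbb-bs at 1265 FPKM against 189 to 365 FPKM. Values without this library are given beside some of the results whose direction or size they change.

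No proteasome gene was found to differ between the genotypes beyond the spread of the replicates. In limma, 0 of the 47 passed an adjusted p of 0.05, and 0 had an unadjusted p under 0.05; the smallest adjusted p was 0.957. Over all 12535 genes tested, 23 passed as lower in K15-SKO, which is 0.183%, and 46 as higher, which is 0.367%. With genes listed at 0 in every library of a genotype left out, 0 passed as higher and 12 as lower. An unadjusted p under 0.05 was found for 543 of the 12535 genes, or 4.33%. The libraries of the genotypes overlapped for every one of the 47 genes, whereas 420 of all genes tested, 3.35%, had groups that did not overlap. These values come from whole muscle, in which fewer cells of a type and less RNA per cell cannot be told apart.

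The size of the differences was small and bounded. Log2 fold changes of the 47 ran from -0.38 for Psme2 to 0.20 for Psme1, with quartiles of -0.18 and -0.06, against quartiles of -0.23 and -0.01 for all genes tested. Their median was -0.12, the same as the median over all genes, and 24 of the 47 lay above that median. A negative sign was found for 39 of 47 (83.0%) and for 9646 of all 12535 genes (77.0%). Without K15-SKO replicate 3 the median was -0.033 for the 47 and -0.035 for all genes. After median-of-ratios scaling, which moves the median of all genes to 0.00, 22 of the 47 were negative and 25 positive, so the direction of a single gene is not read here from its sign. On FPKM + 0.5, all 47 of the 95% intervals lay within a 2-fold change either way, between -0.91 and 0.77 in log2. On that scale 28 lay within 1.5-fold either way, among them Psmb8 and Psmb9. The added 0.5 understates the change of low genes such as these, so their bounds on FPKM itself are wider. The intervals rest on the spread between libraries, which limma estimates for each gene with information from the other genes.

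**Figure D1:**
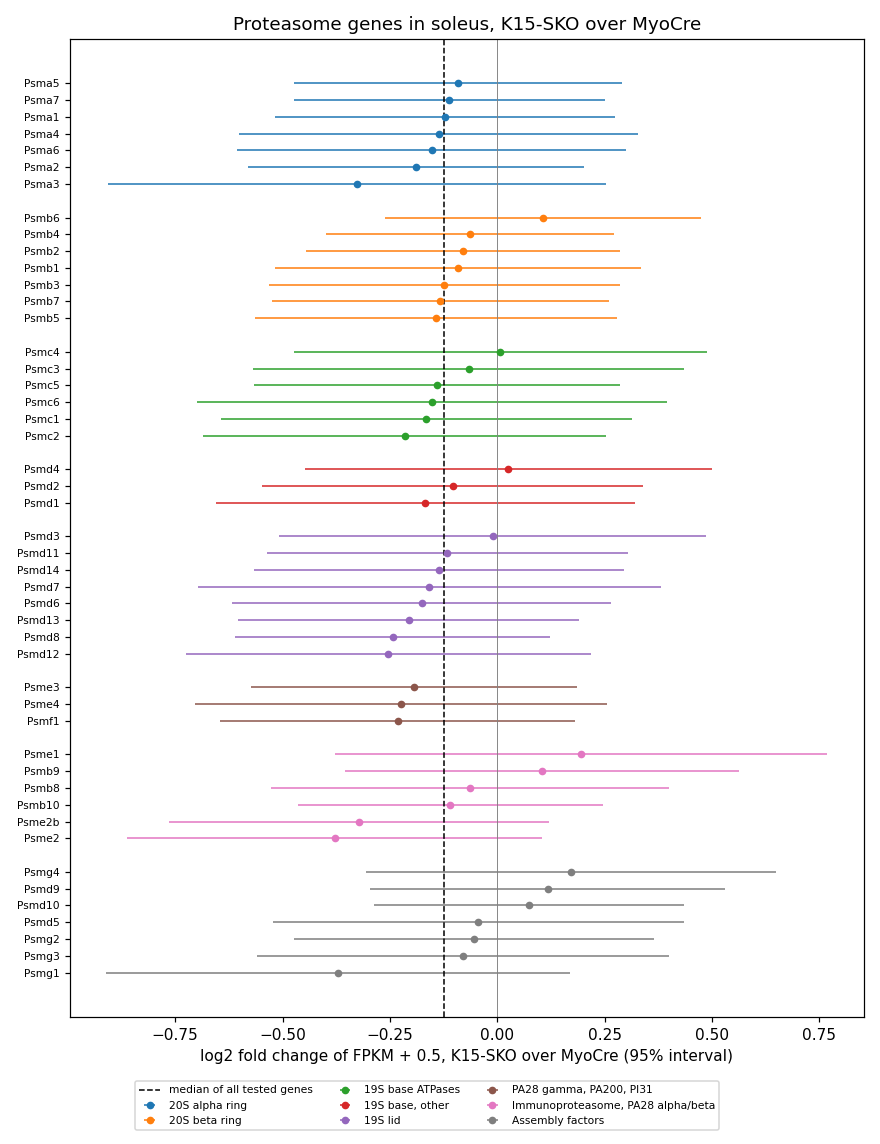
Log2 fold change of FPKM + 0.5, K15-SKO over MyoCre, for each of the 47 proteasome genes (points) with 95% limma intervals (bars), coloured by role; the dashed line is the median of all genes tested, -0.12. Every interval includes that median and 0, and the points run from -0.38 (Psme2) to 0.20 (Psme1).

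The core particle was the most abundant part. The 7 beta ring genes summed to 664 ± 63.2 FPKM in K15-SKO libraries and 690 ± 69.5 FPKM in MyoCre libraries (SD, n = 4 each), and the 7 alpha ring genes to 342 ± 61.2 FPKM in K15-SKO and 374 ± 18.4 FPKM in MyoCre libraries. K15-SKO replicate 3 had 253 FPKM in the alpha sum, where the other K15-SKO libraries had 356 to 390 FPKM. The highest levels of all belonged to Psmb6, Psmb7, Psmb1 and Psmb4, with means over the 8 libraries of 137, 130.4, 107 and 107 FPKM. Alpha subunits, each of which is present once per ring, differed widely in listed level: Psma7 averaged 78.6 FPKM, while Psma3 averaged 11.8 FPKM and Psma5 13.8 FPKM. Gapdh and Ppia, often used as reference genes, were listed at only 0.342 to 1.11 FPKM and 0 to 0.290 FPKM over the 8 libraries. A low listed value may thus not stand for a low transcript level, which limits every comparison between different genes. The cause was not tested. The median log2 fold change, relative to that of all genes, was -0.01 for the alpha ring and 0.03 for the beta ring.

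Psma3, an alpha ring subunit, had the lowest log2 fold change of the core genes. Its levels were 12, 10.9, 5.34 and 14.5 FPKM in K15-SKO libraries, against 11, 10.7, 13.6 and 16.6 FPKM in MyoCre libraries. The low value was that of K15-SKO replicate 3 alone, and the other 3 K15-SKO libraries lay within the MyoCre range. The log2 fold change was -0.33 ± 0.27 (SE), with an exact permutation p of 0.429, and without K15-SKO replicate 3 it stood 0.00 from the median of all genes, against -0.20 with it.

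Proteolysis in the constitutive core is carried out by Psmb6 (beta1, caspase-like activity), Psmb7 (beta2, trypsin-like) and Psmb5 (beta5, chymotrypsin-like). Psmb6 had 143, 150.4, 155 and 120.2 FPKM in K15-SKO libraries, against 123, 146, 146 and 114 FPKM in MyoCre libraries. Psmb7 had 138, 147, 97.7 and 117 FPKM in K15-SKO libraries, against 133, 145, 149 and 116 FPKM in MyoCre libraries. Psmb5, the target of the proteasome inhibitors used in myeloma, had 69.6, 55.6, 66.7 and 44.8 FPKM in K15-SKO libraries, against 68.8, 72.2, 68.4 and 50.8 FPKM in MyoCre libraries. Replicate 4 of each genotype was lowest for Psmb6 and Psmb5, and the groups overlapped for all 3. Log2 fold changes were 0.11 ± 0.17 for Psmb6, -0.13 ± 0.18 for Psmb7 and -0.14 ± 0.20 for Psmb5 (SE). Relative to the median of all genes, Psmb6 stood at 0.23 with all libraries and at 0.10 without K15-SKO replicate 3, Psmb5 at -0.02 and -0.17.

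On the mm10 build the gene models of Psmb6 (chr11:70525367-70527858, plus strand), Psmb7 (chr2:38588036-38644087, minus strand) and Psmb5 (chr14:54614119-54618022, minus strand) lie apart from each other.

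The immunoproteasome counterparts were present at a few percent of those levels or less. Psmb8 (chr17:34197721-34201454, plus strand) and Psmb9 (chr17:34181987-34187764, minus strand) are neighbours in the major histocompatibility complex, and Psmb10 (chr8:105935735-105938444, minus strand) lies elsewhere. Psmb9 (beta1i) had 1.09, 1.31, 2.06 and 0.951 FPKM in K15-SKO libraries, against 1.13, 1.07, 1.42 and 1.13 FPKM in MyoCre libraries. Psmb10 (beta2i) had 4.34, 5.75, 5.91 and 5.26 FPKM in K15-SKO libraries, against 5.61, 5.87, 5.53 and 5.95 FPKM in MyoCre libraries. Psmb8 (beta5i) had 2.38, 3.33, 4.70 and 3.07 FPKM in K15-SKO libraries, against 2.72, 3.02, 3.87 and 4.44 FPKM in MyoCre libraries. Psmb8 and Psmb9 were highest in K15-SKO replicate 3, the same library in which haemoglobin Hbb-bs was highest; the part of that library's composition in these values was not tested. Log2 fold changes relative to the median of all genes were 0.06 for Psmb8, 0.23 for Psmb9 and 0.01 for Psmb10 with all libraries, and -0.18, -0.03 and -0.12 without K15-SKO replicate 3.

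The summed level of the 3 immunoproteasome catalytic genes was 2.22, 2.94, 3.96 and 3.29% of the constitutive sum in K15-SKO libraries, against 2.91, 2.74, 2.98 and 4.10% in MyoCre libraries. The means were 3.11 ± 0.725% and 3.18 ± 0.620% for K15-SKO and MyoCre (SD, n = 4 each), and the highest single value was that of MyoCre replicate 4. By position, Psmb9 was 0.937 ± 0.262% of Psmb6 in K15-SKO and 0.904 ± 0.119% in MyoCre. Psmb10 was 4.40 ± 1.23% of Psmb7 in K15-SKO and 4.27 ± 0.599% in MyoCre, and Psmb8 was 5.82 ± 1.67% of Psmb5 in K15-SKO and 5.63 ± 2.20% in MyoCre. Without K15-SKO replicate 3 the K15-SKO means were 2.82 ± 0.546% for the sum, 0.808 ± 0.0559% for Psmb9, 3.85 ± 0.685% for Psmb10 and 5.42 ± 1.78% for Psmb8 (SD, n = 3). The 3 ratios by position, above the MyoCre means with all libraries, lay below them without that library. Leukocyte markers, 12 of 12 of which were tested, summed to between 66.6 and 124 FPKM in K15-SKO libraries and between 91.1 and 143 FPKM in MyoCre libraries; none was at 0 in every library, and whether such cells carry the immunoproteasome transcripts was not tested.

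**Figure D2:**
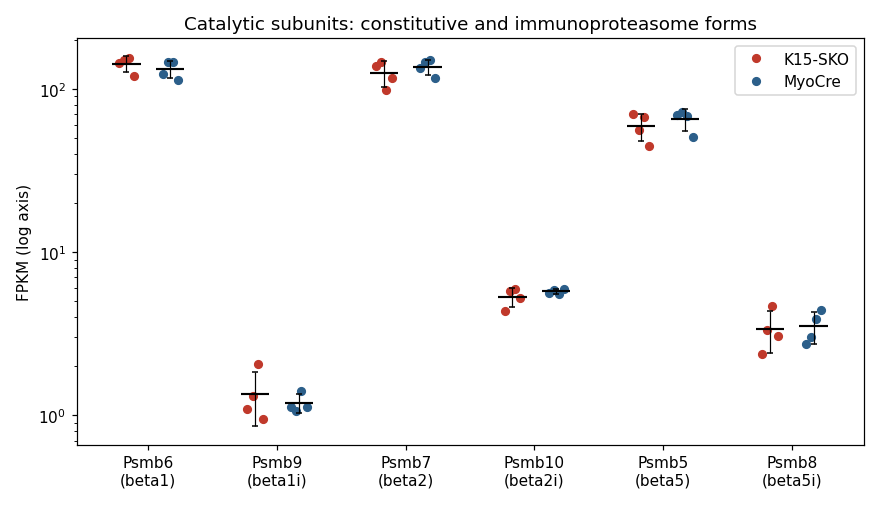
FPKM of the constitutive catalytic subunits and their immunoproteasome counterparts on a log axis, each dot a library, with bars for the mean and SD of 4 K15-SKO (red) and 4 MyoCre (blue) libraries. The dots of the genotypes overlap for all 6 genes, and each immunoproteasome form lies far under its constitutive partner (Psmb9 at 1.27 and Psmb6 at 137 FPKM over the 8 libraries).

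Psmb9 lies beside Tap1, a subunit of the peptide transporter of antigen presentation, and the genes are read in opposite directions from a common start region on chromosome 17. The 300-base windows around their starts, taken from RefSeq promoters on GRCm38.p6, share 275 bases, and the gene models overlap by 212 bases. The window of Psmb9, chr17:34187281-34187580, minus strand, is shown because it covers both starts; capitals mark the single match to CCAAT, here on the opposite strand.
Psmb9 promoter: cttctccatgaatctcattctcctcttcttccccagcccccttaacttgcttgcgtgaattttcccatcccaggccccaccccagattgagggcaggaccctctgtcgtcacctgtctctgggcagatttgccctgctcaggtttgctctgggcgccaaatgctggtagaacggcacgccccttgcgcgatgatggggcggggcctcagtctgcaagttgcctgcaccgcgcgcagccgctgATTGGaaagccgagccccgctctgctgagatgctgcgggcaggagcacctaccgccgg
Tap1 had 2.10, 1.64, 1.87 and 1.30 FPKM in K15-SKO libraries, against 1.17, 1.44, 1.64 and 1.97 FPKM in MyoCre libraries, and the groups overlapped. Scaled log2 levels of Psmb9 correlated with those of Tap1 at r = 0.63, with those of the class I gene H2-K1 at 0.79 and with those of Psmb8 at 0.80, over the 8 libraries. The lid gene Psmd3, outside antigen presentation, correlated with Psmb9 at 0.45, and Psmb8 with Tap2, the other transporter subunit, at -0.08. All these genes were read from the same libraries and share their depth and composition. In K15-SKO replicate 3 the scaled log2 level of Psmb9 was 0.82 above its mean over the 8 libraries. In every other library it lay between -0.22 and -0.02 from that mean. The correlations with Psmb9 therefore lean on that library, and none was computed without it. No source used here states whether counting was by strand, so reads from the overlap of Psmb9 and Tap1 cannot be told apart.

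PA28, the activator that opens the core without ATP, is made of Psme1 (alpha) and Psme2 (beta). Psme1 had 15.7, 21.1, 12.7 and 9.75 FPKM in K15-SKO libraries, against 11.6, 18.98, 12.4 and 8.48 FPKM in MyoCre libraries. Replicate 2 was highest and replicate 4 lowest in both genotypes. Psme2 had 4.43, 5.88, 3.22 and 3.47 FPKM in K15-SKO libraries, against 3.99, 6.84, 6.79 and 5.02 FPKM in MyoCre libraries. It had the lowest log2 fold change of the 47, -0.38 ± 0.22 (SE), but the ranges overlapped and the exact permutation p was 0.200. Psme1 had the highest, 0.20 ± 0.27 (SE), with an adjusted p of 0.957 in limma.

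The Psme2 value is uncertain, since Psme2b on chromosome 11 is a near copy: 789 of 794 aligned transcript bases were identical (99.4%), and the 5 mismatches all lay in coding sequence. A stretch of 90 coding bases that holds 3 of them is shown, with the mismatched bases in capitals. Within the aligned bases, only reads across such mismatches can separate the genes. Transcript ends outside the alignment can do so too, since the transcripts are 962 bases long for Psme2 and 837 for Psme2b. The stretch shown spans chr14:55587732-55588258, minus strand, across an intron for Psme2 and chr11:48945558-48945647, minus strand, for Psme2b, both on GRCm38.
Psme2: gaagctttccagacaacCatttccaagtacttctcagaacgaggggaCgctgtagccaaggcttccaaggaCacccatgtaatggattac
Psme2b: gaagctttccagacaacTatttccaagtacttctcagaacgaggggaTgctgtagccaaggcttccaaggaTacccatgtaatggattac
The copy was listed at the higher level, 14.6, 11.5, 10.03 and 8.47 FPKM in K15-SKO libraries, against 13.2, 16.2, 15.6 and 10.8 FPKM in MyoCre libraries. Psme2 made up 27.6 ± 4.85% of the pair in K15-SKO and 28.7 ± 3.73% in MyoCre (SD, n = 4 each). The sum of the pair, which depends less on how shared reads were divided, was 15.4 ± 3.36 FPKM in K15-SKO and 19.6 ± 3.65 FPKM in MyoCre.

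No difference was detected in the regulatory particle either. The 6 ATPase genes of the base summed to 294 ± 62.9 FPKM in K15-SKO and 314 ± 43.0 FPKM in MyoCre (SD, n = 4 each). The other 3 base genes summed to 178 ± 35.8 FPKM in K15-SKO and 186 ± 33.4 FPKM in MyoCre, and the 8 lid genes to 319.7 ± 56.6 FPKM in K15-SKO and 360.2 ± 34.5 FPKM in MyoCre. K15-SKO replicate 3 was the lowest K15-SKO library in each of these sums. It had 229 FPKM for the ATPases, 146 FPKM for the other base genes and 254 FPKM for the lid. Mean levels of single genes ran from 37.1 to 72.3 FPKM in the ATPases, from 41.1 to 74.96 FPKM in the other base genes and from 22.2 to 84.0 FPKM in the lid. Their median log2 fold changes relative to all genes were -0.02 for the ATPases, 0.02 for the other base genes and -0.04 for the lid. Psmc2, the ATPase with the smallest unadjusted p, had 40.3, 44.2, 25.3 and 28.5 FPKM in K15-SKO libraries, against 46.0, 40.8, 41.8 and 30.0 FPKM in MyoCre libraries. Psmd1, the largest scaffold of the base, had 45.4, 48.2, 23.1 and 41.0 FPKM in K15-SKO libraries, against 42.9, 45.3, 45.8 and 37.3 FPKM in MyoCre libraries. Both were lowest in K15-SKO replicate 3, and without it Psmd1 stood at 0.10 relative to the median of all genes, against -0.04 with it. In the lid, Psmd8 had 77.7, 90.8, 70.2 and 69.2 FPKM in K15-SKO libraries, against 84.3, 106, 85.9 and 88.2 FPKM in MyoCre libraries. Only K15-SKO replicate 2 lay within the MyoCre range, and the exact permutation p was 0.114 for a log2 fold change of -0.24 ± 0.17 (SE). The gene for the deubiquitinase of the lid, Psmd14, averaged 30.2 ± 7.02 FPKM in K15-SKO and 32.5 ± 1.93 FPKM in MyoCre.

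Among the other regulators, Psme4 encodes PA200, an alternative cap, Psme3 the nuclear activator PA28 gamma and Psmf1 the regulator PI31. Psme4 had 66.3, 57.9, 33.6 and 67.1 FPKM in K15-SKO libraries, against 63.1, 56.5, 71.6 and 63.6 FPKM in MyoCre libraries. K15-SKO replicate 3 again was the lowest, and the other 3 lay within the MyoCre range. Psme3 had 15.6, 15.1, 11.7 and 16.7 FPKM in K15-SKO libraries, against 16.8, 15.5, 19.5 and 15.8 FPKM in MyoCre libraries. Psmf1 had 5.40, 5.41, 6.39 and 3.73 FPKM in K15-SKO libraries, against 5.81, 6.24, 7.34 and 5.30 FPKM in MyoCre libraries. Set against the all-gene median, log2 fold changes were -0.10 for Psme4, -0.07 for Psme3 and -0.11 for Psmf1, and the groups overlapped. Single libraries set the sign for 2 of them: Psme4 stood at 0.04 without K15-SKO replicate 3, and Psmf1 at 0.03 without K15-SKO replicate 4 and at -0.29 without K15-SKO replicate 3.

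The 7 assembly factors were a low-level group, summing to 65.4 ± 6.34 FPKM in K15-SKO and 64.8 ± 5.97 FPKM in MyoCre (SD, n = 4 each), with single genes at means of 4.79 to 18.5 FPKM. Their median log2 fold change was 0.08 above that of all genes. Psmg1 to Psmg4 are chaperones of the core, and Psmd5, Psmd9 and Psmd10 are chaperones of the base. Psmg1 had 5.38, 9.05, 3.64 and 3.80 FPKM in K15-SKO libraries, against 5.86, 7.89, 7.49 and 6.07 FPKM in MyoCre libraries. K15-SKO replicate 2 was above every MyoCre library and the other 3 below, with an exact permutation p of 0.343. Psmg4 had 17.7, 19.6, 18.8 and 10.5 FPKM in K15-SKO libraries, against 13.8, 17.2, 15.7 and 11.3 FPKM in MyoCre libraries. Psmd9 had 6.32, 8.41, 7.01 and 5.15 FPKM in K15-SKO libraries, against 6.75, 6.82, 6.12 and 4.80 FPKM in MyoCre libraries. Their log2 fold changes were -0.37 ± 0.25 for Psmg1, 0.17 ± 0.22 for Psmg4 and 0.12 ± 0.19 for Psmd9 (SE). Relative to the median of all genes, Psmg4 stood at 0.30 with all libraries and 0.14 without K15-SKO replicate 3, and Psmd9 at 0.24 and 0.13.

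Over all 47 genes, the summed level was 2133, 2288, 1677 and 1823 FPKM in K15-SKO libraries, against 2101, 2219, 2304 and 1847 FPKM in MyoCre libraries. As a share of the table it was 0.350 ± 0.0305% in K15-SKO and 0.356 ± 0.0259% in MyoCre (SD, n = 4 each). Without K15-SKO replicate 3 the K15-SKO share was 0.363 ± 0.0206% (SD, n = 3), above the MyoCre mean and no longer below it. The lowest sums were those of K15-SKO replicate 3 and, among MyoCre libraries, replicate 4.

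**Figure D3:**
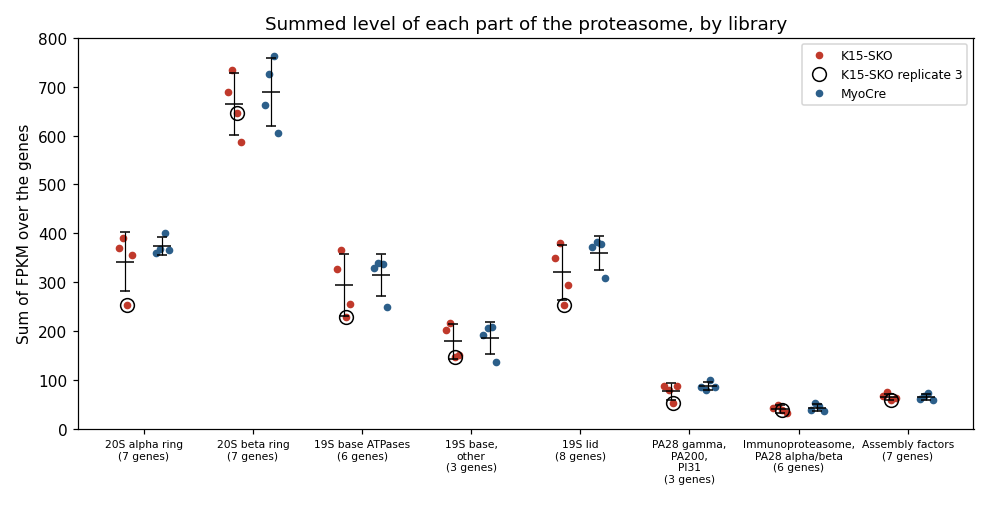
Sum of FPKM over the genes of each part of the proteasome, each dot a library, with the mean and SD of 4 K15-SKO (red) and 4 MyoCre (blue) libraries; K15-SKO replicate 3 is ringed. The genotypes overlap in every part, and the ringed library is the lowest K15-SKO value for the alpha ring, both sets of base genes, the lid, the other regulators and the assembly factors.

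The 47 genes varied between libraries along with the base composition of their transcripts. As deposited, K15-SKO replicate 3 was the lowest library for 22 of 47 genes (46.8%, against 47.3% of all genes), K15-SKO replicate 4 for 13 (27.7%, against 15.1%) and MyoCre replicate 4 for 9 (19.1%, against 16.7%). After scaling, the deviation of a gene in these libraries followed the content of G and C bases in its transcript. Over the 47 genes, r between GC content and the log2 deviation from the mean of 8 libraries was 0.74 in K15-SKO replicate 3, -0.71 in K15-SKO replicate 4 and -0.56 in MyoCre replicate 4. Over all 12497 tested genes with a GC value, r was 0.41, -0.32 and -0.40 in the same 3 libraries. In the other 5 libraries r over the 47 lay between -0.19 and 0.48. Genes are not independent points, so these are descriptions without a p.

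A pair of genes of the regulatory particle marks the ends of that range. The ATPase gene Psmc6 had the lowest transcript GC content, 37.0%, and the lid gene Psmd3 the highest, 58.3%. A 90-base coding stretch of each is printed with G and C in capitals, 33 of 90 in Psmc6 (chr14:45340787-45340876, plus strand) and 53 of 90 in Psmd3 (chr11:98685544-98685633, plus strand), both on GRCm38.
Psmc6: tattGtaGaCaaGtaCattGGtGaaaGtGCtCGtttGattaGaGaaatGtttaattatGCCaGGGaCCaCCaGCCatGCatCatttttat
Psmd3: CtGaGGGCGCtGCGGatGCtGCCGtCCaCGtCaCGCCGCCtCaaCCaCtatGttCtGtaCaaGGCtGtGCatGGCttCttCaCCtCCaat
Psmc6 had 62.1, 62.8, 28.7 and 70.5 FPKM in K15-SKO libraries, against 58.1, 52.0, 62.0 and 64.5 FPKM in MyoCre libraries, lowest in K15-SKO replicate 3 and highest in K15-SKO replicate 4. Psmd3 had 27.1, 27.1, 25.3 and 18.2 FPKM in K15-SKO libraries, against 29.0, 29.1, 27.2 and 15.2 FPKM in MyoCre libraries, lowest in replicate 4 of either genotype. The scaled levels of these genes, whose products sit in the same particle, correlated at r = -0.76 over the 8 libraries. In 2 pairs picked after their values were seen, Psmc3 (55.1% GC) and Psmd4 (54.4% GC) correlated at 0.96, and Psmc6 and Psma3 (40.8% GC) at 0.92. The mean over all 1081 pairs of the 47 genes was 0.04, against 0.00 over all pairs of tested genes.

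**Figure D4:**
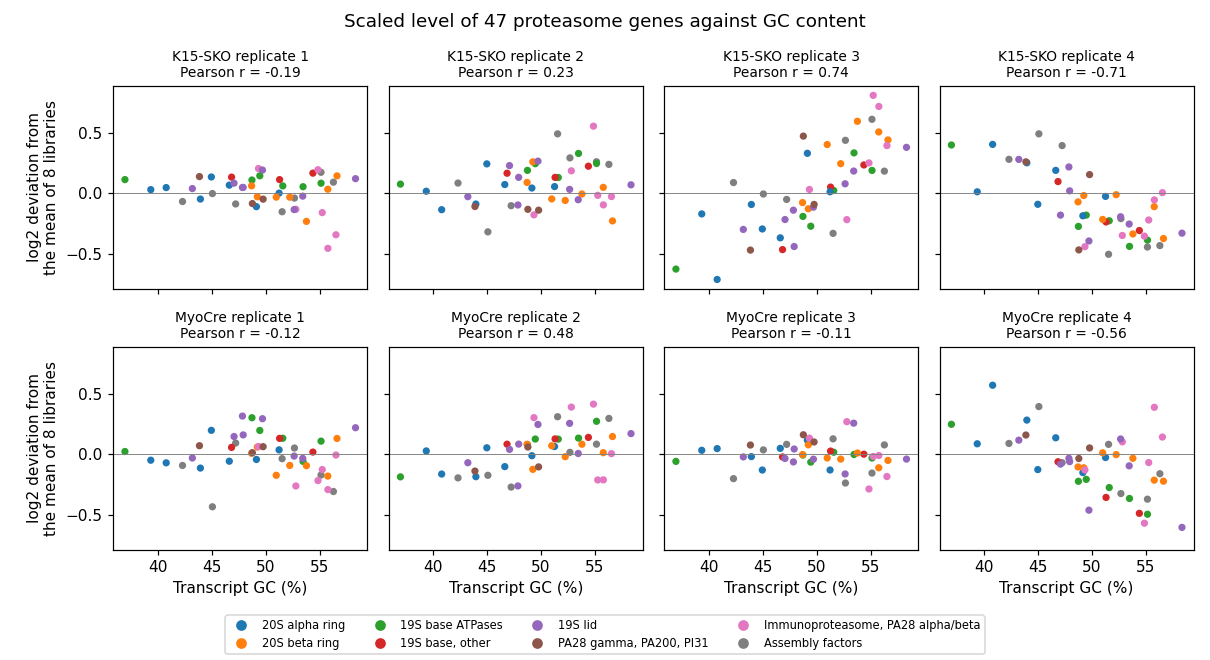
Scaled log2 deviation of each of 47 proteasome genes from its mean over the 8 libraries (vertical) against transcript GC content in percent (horizontal), with a panel per library, K15-SKO above MyoCre, coloured by role. The points climb with GC content in K15-SKO replicate 3 (r = 0.74) and descend in K15-SKO replicate 4 (-0.71) and MyoCre replicate 4 (-0.56).

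With the GC trend of each library subtracted, the median SE of the 47 fold changes was 0.13, against 0.21 as deposited, and 43 of the 47 intervals lay within 1.5-fold either way, against 28. The subtraction also removed differences in level between libraries, and the median of all genes moved from -0.12 to 0.00. The shares of GC content and of level in the narrower intervals were not tested. In this corrected fit 0 of the 47 passed, with a smallest limma adjusted p of 0.889 for Psmd10, and 21 were negative and 26 positive. In a fit of the 5 other libraries alone, 0 passed as well.

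Promoter windows were available for 40 of the 47 genes, from 250 bases before to 50 bases after the start. Both strands were searched. CCGGAAG, a motif of ETS-family factors, was found in 14 of 40 windows (35.0%), against 9.93% of 27025 genes with a window. GGGCGG, bound by SP factors, was in 23 (57.5%, against 38.2%), and CACCC, a core bound by many KLF proteins, was in 17 (42.5%, against 59.8%). CCAAT was in 13 windows (32.5%, against 41.1%), the interferon-type element GAAA, any pair of bases, GAAA in 5 (12.5%, against 3.99%), TATAAA in 4 (10%, against 15.7%) and the heat shock type TTCNNNGAA in 3 (7.5%, against 9.55%). These are letter matches, some of which overlap, and not binding data. TGANTCAGC, a form of the element read by NRF1 and NRF2, the stress-responsive activators of proteasome genes, was in 1 window (2.5%, against 1.37%), that of Psmb5. That window, chr14:54617946-54618245, minus strand, is shown as the only such match, in capitals at its downstream end. The match lies within the 50 bases after the start and behind an atg in the printed sequence, so it is not upstream of the gene. Whether it acts as such an element was not tested.
Psmb5 promoter: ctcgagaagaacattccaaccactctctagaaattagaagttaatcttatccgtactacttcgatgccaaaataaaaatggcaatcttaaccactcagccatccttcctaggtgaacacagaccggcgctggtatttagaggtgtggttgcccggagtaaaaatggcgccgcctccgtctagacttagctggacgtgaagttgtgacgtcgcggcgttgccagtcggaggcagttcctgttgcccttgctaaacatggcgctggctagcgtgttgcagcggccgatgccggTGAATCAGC

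Proteasome-associated genes without a Psm symbol gave no call either. Of 9 tested, among them the core assembly factor Pomp, the ubiquitin receptor Adrm1, the lid subunit Shfm1 and the deubiquitinase Usp14, 0 passed in either direction, and their median was -0.07 relative to all genes, with 8 of 9 below that of all genes. Pomp averaged 53.4 ± 2.49 FPKM in K15-SKO and 62.0 ± 12.7 FPKM in MyoCre. Of 14 genes that control or feed the proteasome, such as ubiquitin genes, ubiquitin shuttles and the NRF1 gene Nfe2l1, 0 passed, with a median of 0.00. Nfe2l1 averaged 197 ± 25.5 FPKM in K15-SKO and 198 ± 31.4 FPKM in MyoCre (SD, n = 4 each). Of 9 antigen processing genes tested, 0 passed, with a median of 0.13, and 2 of 9 lay below the median of all genes.

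The 47 genes were spread over 16 chromosomes, with 9 on chromosome 11. None was listed at 0 in any library.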

How the data were processed

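The authors deposited a table of 24033 genes with 1 value per library, taken here as FPKM because the submitters' processing notes name STAR, Cufflinks and Cuffdiff with the mm10 build, without versions. The unit was inferred, since the header gives sample names only. The sources used here do not give the strand setting, annotation release or scaling. The table holds 0 further columns of values. Depth is unknown with FPKM, and the estimate given assumes that the most common of the lowest values stands for 1 fragment.

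The fit was run in limma 3.58.1 (R 4.3.3) on log2(FPKM + 0.5), with a mean-dependent trend, robust estimation and genotype as the only term, over the 12535 genes whose mean reached 1 FPKM. Tests were two-sided, with Benjamini-Hochberg adjustment over all genes and a threshold of 0.05. Fold changes are K15-SKO over MyoCre and understate the change of low genes. Exact permutation tests (Python 3.11.15, scipy 1.17.1) used FPKM of single genes. Each library is stated to be 1 of 4 mice per genotype, so p-values set the difference between genotypes against the variation between mice. In limma that variation is estimated for each gene with information from the other genes.

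The members and lists were chosen with earlier results of these data known. Named with all values were Klf15, the catalytic subunits, Psme1 to Psme4, the smallest unadjusted p of each role group, and the 3 highest and 3 lowest fold changes; Psmc6, Psmd3, Psme2b, Tap1, Psmc3, Psmd4, Psmd14, Pomp, Nfe2l1 and the correlated pairs were chosen after their values were seen. Positions come from GENCODE M21 on GRCm38, the mm10 build, to which 23896 of 24033 gene IDs matched without version and 18786 with it. GC content is that of the longest coding transcript, and its trend was subtracted as a lowess curve with a span of 0.3. Promoter sequences come from RefSeq promoters (GRCm38.p6) and coding stretches from GENCODE M21 transcripts. Psme2 and Psme2b were aligned with Biopython 1.88. Alternatives were other pseudocounts, filters, scalings, library weights, a replicate block and single libraries left out, and, chosen after seeing the data, the GC correction and the 5 libraries without K15-SKO replicates 3 and 4 and MyoCre replicate 4.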

Additional observations from a re-analysis of the deposited data

Results flagged for a closer look

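Of 96 sets of 4 libraries examined, for the 47 proteasome genes and Klf15 in either genotype, 4 had a library whose gap to its nearest neighbour took up most of the range of the set; chance gives such a gap in about 1 of 20 sets, or 4.80 of 96. Psma6, an alpha ring subunit, was low in K15-SKO replicate 3, at 41.95 FPKM, where the other 3 K15-SKO libraries had at least 73.3 FPKM. In MyoCre replicate 4, the base genes Psmc5 and Psmd2 and the lid gene Psmd3 were low, at 36.48, 48.97 and 15.24 FPKM. Transcript GC content was 46.6% for Psma6, 51.6% for Psmc5, 51.3% for Psmd2 and 58.3% for Psmd3; the part of GC content in these values was not tested.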

How the results depend on the processing

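Over 21 alternatives, 0 of the proteasome genes tested passed the threshold. All 47 were tested except with a mean of at least 5, where 43 were. In 19 of the 21 alternatives 0 had an unadjusted p under 0.05. It was 2 once K15-SKO replicate 2 was left out and 1 once MyoCre replicate 1 was. The smallest limma adjusted p was 0.490, for Psmb10 with library weights. The median of the proteasome genes tested, relative to all genes, ran from -0.06 to 0.02. Psmb8 and Psmb9 moved to -0.18 and 0.01 with library weights, where Psmb10 moved to -0.22, and Psmg1 moved to 0.03 in the 5 libraries alone, all relative to the median of all genes and none past the threshold. The cause was not tested.

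Over all genes, the count lower in K15-SKO was 14 with median-of-ratios scaling, 15 with upper-quartile scaling, 14 with quantile normalization, 15 without robust estimation, 101 with library weights, 12 without genes listed at 0 in a genotype, 38 with the GC correction, 15 in the 5 libraries alone and 7 to 27 with a library left out, 7 being without MyoCre replicate 3. The count higher was 22 with a mean of at least 5, 0 without genes listed at 0 in a genotype, and 46 to 48 with a library left out. Klf15 stayed lower throughout and kept its call in 9 of 21 alternatives. It lost the call at -1.28 with no filter (adjusted p 0.129 in limma), without robust estimation (0.0879) and without genes listed at 0 (0.0943), at -1.15 with median-of-ratios scaling (0.0864), -1.16 with upper-quartile scaling (0.0819) and -1.15 with quantile normalization (0.0990); with a library left out it ran from -1.55 to -1.18. The cause was not tested.

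Replicate numbers do not pair the libraries by the labels. Same-numbered libraries correlated at 0.10, 0.23, 0.00 and 0.28 over all genes and at 0.35, 0.57, 0.16 and 0.74 over the 47 proteasome genes. Libraries with different numbers correlated between -0.24 and 0.13 over all genes and between -0.82 and 0.29 over the 47. Over the 47, the same-numbered MyoCre library was the closest match for K15-SKO replicates 1, 2 and 4. K15-SKO replicate 3 was closer to MyoCre replicate 2 (0.29) than to MyoCre replicate 3 (0.16). From the MyoCre side, the same-numbered K15-SKO library was the closest match for every replicate. With the replicate number as a block, 32 genes passed as lower and 46 as higher, 0 of the 47 proteasome genes passed, their median was 0.00 from that of all genes, and Klf15 was -1.28 with a limma adjusted p of 0.00534. Depth limits the lowest genes most, Psmb9 above all.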
